A study of Mus musculus with 6 samples.

Results

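The 9 genes described here encode components and regulators of the complement system: the 3 chains of C1q (C1qa, C1qb and C1qc), the protease C1ra, the central proteins C3 and C4b, factor B (Cfb), C1 inhibitor (Serping1) and the C3a receptor (C3ar1). They were taken by symbol from the 24602 genes of the deposited expression table, and all 9 were found. The tissue was the left ventricle of wild-type mice, taken 5 weeks after surgery: 3 samples after transverse aortic coarctation (TAC), which narrows the aorta and loads the ventricle with pressure, and 3 after the sham operation that serves as control. The comparison asks which of these genes differ between the loaded and the control ventricle. The labels give no strain, age or sex. They number the samples in each group but do not tie a number to 1 animal, so the p-values refer to the variation among these 6 samples, and some of it may be technical.

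Complement is a cascade of secreted proteins that marks cells and debris for removal. In the classical pathway C1q binds its target, and the proteases C1r and C1s held by it then cut C4 and C2. In the alternative pathway C3 is cut by an enzyme that contains factor B. Both routes lead to cleavage of C3, whose small fragment C3a acts on the C3a receptor. Most circulating complement is made in the liver. Tissue macrophages are a main source of C1q, and fibroblasts and other stromal cells can make C1r, C1s, C3 and C1 inhibitor.

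The library totals lay between 64023153 and 69992502 estimated counts, which in these columns mostly follow FPKM and gene length and are not tallies of reads. Levels are given below as CPM, the estimated counts relative to library size after TMM scaling, which compare 1 gene between libraries, or as FPKM. The FPKM divide by length and so compare genes. They were used as deposited, without TMM scaling, so TAC and sham can compare differently in the 2 units. The test covered the 8795 genes whose FPKM averaged at least 1, and 615 of them differed at a Benjamini-Hochberg adjusted p under 0.05 in edgeR's quasi-likelihood test (414 higher and 201 lower in TAC). The cardiomyocyte gene Myh6 measured between 16521 and 34055 CPM in every library, and 5 of 6 pressure-overload genes were higher in TAC, with the lowest adjusted p for Xirp2 and Nppb (log2 fold changes 2.09 and 1.58) and the highest change for Acta1 (2.99). TAC replicate 3 stood apart in several genes named below. The share of mitochondrial genes was 14.8% to 19.2% in the sham libraries and 22.6% to 29.2% in the TAC libraries.

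None of the tested complement genes of this set passed the test. C1qa, C1qb and C1qc had mean levels in TAC of 0.99 to 1.04 times those in sham, and their 95% intervals reached from 0.81 to 1.27-fold. C3, Cfb, C1ra and C4b had mean levels in TAC between 1.48 and 1.85 times those in sham. After adjustment over all tested genes their edgeR adjusted p lay between 0.0647 and 0.130, so none passed. Serping1 stood at 1.24 times the sham level. C3ar1 lay below the filter on low values and was high in 1 TAC library. So 8 of the 9 genes were tested, and 0 of 8 were called, against 6.99% of all tested genes in either direction and 4.71% in the direction of TAC. At an unadjusted p under 0.05 there were 4 of 8 (C1ra, C3, C4b and Cfb), against 28.1% of all tested genes. DESeq2 called 2 of 8 (C3 and Cfb), against 18.7% of all tested genes. The 8 tested genes had a median log2 fold change of 0.44 and a range from -0.01 to 0.89, beside a median of -0.01 over all tested genes.

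**Figure D1:**
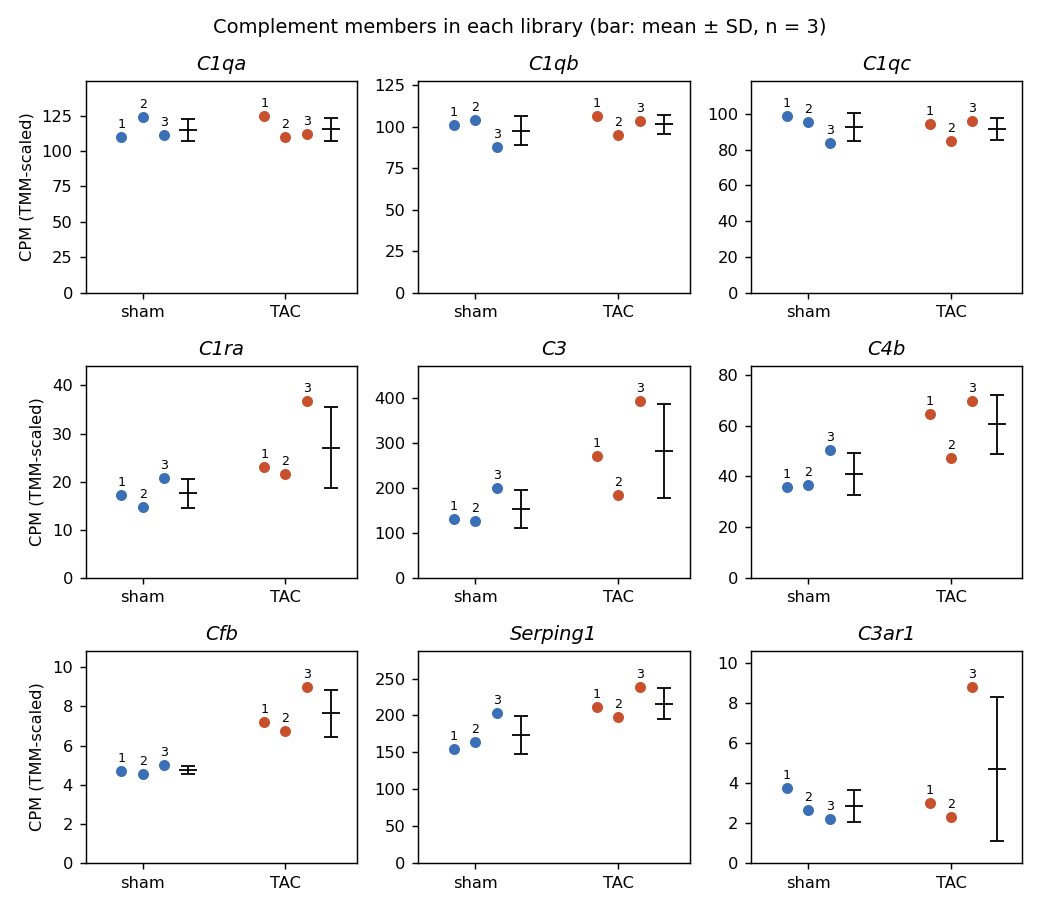
Level of each of the 9 complement genes in CPM (vertical axis, from 0) in the 3 sham (blue) and 3 TAC (orange) libraries, numbered by replicate, with the group's mean ± SD beside them. The C1q chains lie at one height in both groups, the TAC libraries of Cfb and C1ra lie above all sham libraries, and C3ar1 stands at 8.83 CPM in TAC replicate 3 alone.

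The C1q chains carry out recognition. Their genes lie next to each other on the minus strand of chromosome 4 (GRCm38), C1qb at 136880129 to 136886187, C1qc at 136889804 to 136893065 and C1qa at 136895917 to 136898803, within 18.7 kb. C1qa measured 110.0, 124 and 112 CPM in sham replicates 1 to 3 and 125, 109.7 and 112 CPM in TAC replicates 1 to 3. The 2 groups covered the same range, with means of 115 ± 7.78 and 115 ± 8.02 CPM (SD, n = 3 each). C1qb measured 101, 104 and 88.0 CPM in sham and 106, 95.2 and 103 CPM in TAC. C1qc measured 98.7, 95.5 and 84.0 CPM in sham and 94.4, 84.8 and 96.1 CPM in TAC. For both genes the lowest library was a sham library, replicate 3, and the groups overlapped.

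The log2 fold changes of C1qa, C1qb and C1qc were 0.00 ± 0.13, 0.06 ± 0.13 and -0.01 ± 0.13 (SE), with edgeR adjusted p of 0.995, 0.818 and 0.956. These values rest on 5361 to 8705 estimated counts per chain and library. Their 95% intervals ran from -0.29 to 0.29, from -0.24 to 0.35 and from -0.31 to 0.28 on the log2 scale. The fit does not exclude changes within these bounds. The signs of C1qa and C1qb depended on the scaling, while C1qc was below 0 with TMM too. With library totals in place of TMM all 3 were below 0, at -0.13, -0.07 and -0.14. The median of all tested genes was -0.14 on that scale.

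Per length, C1qa and C1qb were the most abundant genes of the set in sham, at 110 ± 10.4 and 88.8 ± 9.22 FPKM, and C1qc stood at 47.4 ± 4.27 FPKM. The chains kept a steady proportion to each other. The FPKM ratio of C1qa to C1qb lay between 1.14 and 1.33 over the 6 libraries and that of C1qc to C1qb between 0.500 and 0.551. The mature protein holds the chains in equal numbers. Over the libraries C1qb and C1qc ran closest together of all pairs in the set, with a root mean square difference of 0.05 between their log2 CPM after each was centred on its own mean. The pair farthest apart was C1qa and C3ar1, at 0.70.

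Macrophage markers were read beside C1q. Of 13 macrophage markers 6 were tested and none was called (median log2 fold change 0.12), and their summed level ran from 126.1 to 156.1 CPM in sham and from 107.8 to 185.4 CPM in TAC, with no marker at 0 in every library. The largest part of that sum was Csf1r, the receptor that macrophages need for survival. It measured 97.7, 97.5 and 79.9 CPM in sham and 74.2, 59.9 and 98.3 CPM in TAC. Csf1r was lowest in TAC replicates 1 and 2, while TAC replicate 3 matched the sham libraries. Other markers of the list lay the other way: Lyve1, a marker of resident macrophages, measured 2.53, 2.75 and 3.46 CPM in sham and 5.61, 3.78 and 5.65 CPM in TAC, without overlap (log2 fold change 0.78 ± 0.24, edgeR adjusted p = 0.0833). The mannose receptor gene Mrc1, below the filter, also did not overlap, at 2.51 to 4.07 CPM in sham and 4.41 to 8.51 CPM in TAC. Cd68, a lysosomal protein of macrophages, averaged 17.8 ± 2.72 CPM in sham and 18.7 ± 3.56 CPM in TAC. The FPKM ratio of C1qb to Csf1r was 5.49 to 5.85 in sham and 7.60, 8.44 and 5.57 in TAC replicates 1 to 3. In bulk tissue, fewer cells of a type and less RNA per cell cannot be told apart, and the part of macrophage number in the C1q values was not tested.

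C1ra encodes the protease that is activated first once C1q has bound. It lies on the plus strand of chromosome 6 at 124512405 to 124523443, 6.9 kb from C1s1, which encodes its partner protease C1s. C1ra measured 17.1, 14.8 and 20.7 CPM in sham and 23.1, 21.5 and 36.7 CPM in TAC. All 3 TAC libraries lay above all 3 sham libraries in CPM, with replicate 3 highest. In FPKM the groups overlapped: TAC replicate 1 and TAC replicate 2 (6.15) both lay below sham replicate 3 (6.77). The log2 fold change was 0.63 ± 0.24 with a 95% interval from 0.08 to 1.17 and an edgeR adjusted p of 0.130. Without TAC replicate 3 it was 0.35, with an adjusted p of 0.185.

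The value of C1ra is uncertain because its transcripts resemble those of C1rb, a neighbouring copy. Of the 50-base windows of C1ra transcripts, 48.0% also occur in C1rb. C1rb was assigned 48, 56 and 164 estimated counts in TAC replicates 1 to 3, and 0, 76 and 0 in sham, against 1038 to 2615 for C1ra. With both records added together the log2 fold change was 0.67 (edgeR adjusted p = 0.111).

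C1s1 is not in the set but belongs to the same enzyme complex, and it was named as the most abundant further gene of the classical pathway. It measured 11.3, 7.62 and 11.1 CPM in sham and 17.7, 14.9 and 27.8 CPM in TAC, without overlap. Its log2 fold change was 1.01 ± 0.27, with an edgeR adjusted p of 0.0591. The FPKM ratio of C1s1 to C1ra was 0.490 to 0.625 in sham and 0.659 to 0.730 in TAC. This pair was looked at after the values were seen, and 21.8% of the 50-base windows of C1s1 occur in C1s2, which held 0 to 13 estimated counts per library.

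C3 is the protein on which the complement routes converge. It lies on the minus strand of chromosome 17 at 57203970 to 57228136. C3 measured 132, 126 and 201 CPM in sham and 271, 185 and 393 CPM in TAC. Sham replicate 3 lay above TAC replicate 2, so the groups overlapped, and TAC replicate 3 was the highest library. The means were 153 ± 41.8 and 283 ± 105 CPM (SD, n = 3 each). With a log2 fold change of 0.89 ± 0.29 and a 95% interval from 0.22 to 1.55, C3 had an edgeR adjusted p of 0.0936. The fold change on that scale was 0.58 without TAC replicate 3 and 1.13 without sham replicate 3, and neither value passed (adjusted p of 0.113 and 0.108). C3 passed under DESeq2 (0.90, adjusted p = 0.0198).

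C4b encodes C4, the protein cut by C1s, and lies on the minus strand of chromosome 17 at 34728380 to 34743882. It measured 35.6, 36.6 and 50.4 CPM in sham and 64.6, 47.3 and 69.5 CPM in TAC. As for C3, sham replicate 3 was the highest sham library, TAC replicate 2 the lowest TAC library, and the groups overlapped at these samples. The log2 fold change was 0.57 ± 0.20 with a 95% interval from 0.11 to 1.02 (edgeR adjusted p = 0.110). The neighbouring copy C4a shares 34.6% of the 50-base windows of C4b and was assigned 9 to 49 estimated counts per library, against 2440 to 4957 for C4b. Adding C4a to C4b gave a log2 fold change of 0.56 (adjusted p = 0.114). Per length, C3 exceeded C4b by 3.81 to 6.27 times over the 6 libraries, with the largest ratio in TAC replicate 3.

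Factor B, encoded by Cfb, supplies the protease of the alternative pathway enzyme. Its gene lies on the minus strand of chromosome 17 at 34856374 to 34862518. C2 lies 85 bases away on the same strand, upstream of Cfb in the direction of transcription. Cfb measured 4.70, 4.57 and 4.99 CPM in sham and 7.20, 6.75 and 9.02 CPM in TAC. The sham libraries lay close together and every TAC library lay above them, in FPKM as well (1.60 to 1.72 against 2.04 to 3.10). The log2 fold change was 0.69 ± 0.19 with a 95% interval from 0.25 to 1.12, and the edgeR adjusted p of 0.0647 was the lowest of the set. It rests on 320 to 643 estimated counts per library. Cfb passed under DESeq2 (0.70, adjusted p = 0.00735) and in edgeR with the GC and length trends removed (0.82, adjusted p = 0.0381).

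The read-through record Gm20547 covers 79.5% of the exonic bases of Cfb on the same strand. Adding its counts to Cfb gave a log2 fold change of 0.67 (edgeR adjusted p = 0.0687), and adding those of C2 gave 0.58 (adjusted p = 0.0890). C2, the classical pathway counterpart of factor B, averaged 1.18 ± 0.162 CPM in sham against 1.19 ± 0.390 CPM in TAC and was below the filter. With C1ra, Cfb was 1 of 2 tested genes of the set whose TAC libraries all lay above the sham libraries in CPM, against 17.7% of all tested genes.

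**Figure D2:**
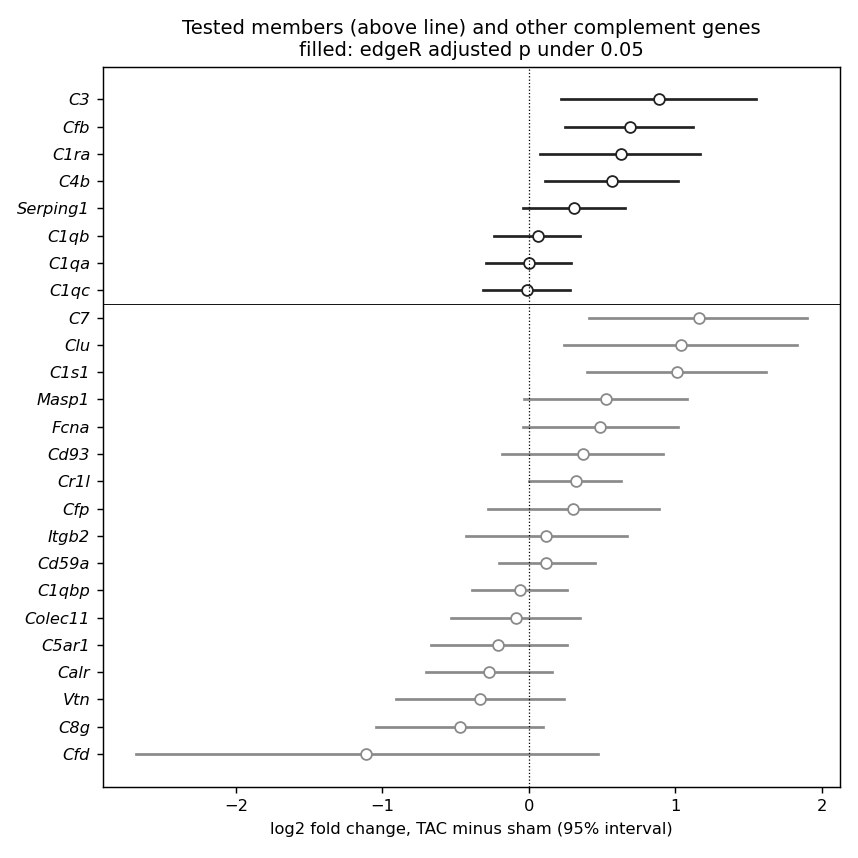
Log2 fold change of TAC minus sham (horizontal axis) with its 95% interval for the 8 tested genes of the set (above the line) and 17 other tested complement genes (below it). Filled circles would mark an edgeR adjusted p under 0.05, which no gene drawn reached, and the C1q chains lie at 0.

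Serping1 encodes C1 inhibitor, the serpin that inactivates C1r and C1s. It lies on the minus strand of chromosome 2 at 84765387 to 84775444. Serping1 measured 154.5, 164 and 203 CPM in sham and 211, 198 and 239 CPM in TAC. Sham replicate 3 lay above TAC replicate 2 here too. The log2 fold change was 0.31 ± 0.15, with a 95% interval from -0.04 to 0.66 and an edgeR adjusted p of 0.225. Per length it ranked next after C1qb in sham, at 73.8 ± 10.7 FPKM, which did not differ from C1qb beyond their spread, and at 83.4 ± 14.8 FPKM in TAC it matched C1qb at 83.4 ± 8.84 FPKM.

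The order of the remaining genes by FPKM was the same in both groups except for C3 and C1qc. C1qc stood above C3 in sham (47.4 ± 4.27 and 29.3 ± 7.71 FPKM). In TAC, C3 measured 50.0 ± 22.4 and C1qc 42.5 ± 5.56 FPKM, a difference within the spread of C3. C4b and C1ra followed at 7.08 ± 1.38 and 5.80 ± 0.884 FPKM in sham and 9.55 ± 2.40 and 8.24 ± 3.24 FPKM in TAC, each pair within its spread. Cfb was next at 1.65 ± 0.0616 and 2.44 ± 0.582 FPKM, and C3ar1 was lowest.

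C3ar1 encodes the receptor for C3a, found on macrophages and other myeloid cells, and lies on the minus strand of chromosome 6 at 122847138 to 122856161. It measured 3.77, 2.63 and 2.21 CPM in sham and 3.015, 2.28 and 8.83 CPM in TAC, from 144 to 258 estimated counts in 5 libraries and 630 in TAC replicate 3. TAC replicates 1 and 2 lay within the sham range. Its mean of 0.834 FPKM left it out of the test. Fitted without the filter on low values it had a log2 fold change of 0.60 (edgeR adjusted p = 0.475), and without TAC replicate 3 the sign turned, to -0.18 (adjusted p = 0.778). The macrophage gene Adgre1 was also highest in that library, at 16.2 CPM against 4.45 to 8.51 CPM in the other libraries, as was Ms4a7 at 4.16 CPM against 0.702 to 1.69 CPM. Further macrophage markers, such as Cd163 and Mertk, were highest there too, Csf1r by little (98.3 CPM against 97.7 CPM in sham replicate 1). Tyrobp was highest in TAC replicate 1 (10.4 CPM, against 9.37 CPM in TAC replicate 3). Cx3cr1 was highest in sham replicate 1 (6.21 CPM, against 3.94 CPM in TAC replicate 3). C1qa, at 112 CPM, was not highest in TAC replicate 3.

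Promoter sequences are shown for C3, C3ar1 and C1qb, the genes of the set with 3 different patterns over the libraries: one that varied within both groups, one high in 1 library and one similar in all. They are the 250 bases before the RefSeq transcription start (GRCm38.p6, minus strand, read in the direction of transcription), and 5 of the 9 genes had such an entry. Capitals mark matches on either strand to TTGCNNAA, the core bound by C/EBP factors, or TGACTCA, the site of AP-1; TTCNNNGAA, the interferon-gamma activated site, and an interferon-response core of GAAA, any 2 bases and GAAA were also searched, and no matches overlapped. The C3 window is chr17:57228137-57228386, the C3ar1 window chr6:122856158-122856407 and the C1qb window chr4:136886201-136886450.
C3: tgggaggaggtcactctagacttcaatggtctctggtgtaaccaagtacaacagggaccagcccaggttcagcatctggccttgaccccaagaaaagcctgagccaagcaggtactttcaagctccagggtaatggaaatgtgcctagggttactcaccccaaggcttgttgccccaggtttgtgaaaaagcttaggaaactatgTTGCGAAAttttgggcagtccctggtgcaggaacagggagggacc
C3ar1: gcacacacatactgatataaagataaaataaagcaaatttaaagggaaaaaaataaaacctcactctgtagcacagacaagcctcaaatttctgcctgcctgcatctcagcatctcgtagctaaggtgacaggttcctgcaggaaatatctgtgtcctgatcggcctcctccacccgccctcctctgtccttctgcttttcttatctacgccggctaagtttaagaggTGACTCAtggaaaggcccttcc
C1qb: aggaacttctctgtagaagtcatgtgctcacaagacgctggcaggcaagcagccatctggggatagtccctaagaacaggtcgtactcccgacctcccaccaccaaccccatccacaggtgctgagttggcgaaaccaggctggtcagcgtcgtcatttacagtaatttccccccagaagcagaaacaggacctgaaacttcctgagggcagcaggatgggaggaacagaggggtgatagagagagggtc

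C3 held 1 match to the C/EBP core, beginning 45 bases before the start, and 9.56% of 32851 promoter windows of this length held one. C3ar1 held 1 AP-1 match, 22 bases before the start, as did 4.46% of windows. C1qb, C1qc and C1ra held none of the 4, and the interferon cores occurred in 7.02% and 2.98% of windows. The C1qc window (136892915 to 136893164) and the C1ra window (124512371 to 124512620) reach into the genes as placed above. The C3ar1 window does so by a few bases. For C1qc and C1ra the absence of matches therefore does not describe the full stretch upstream of the gene coordinates given above. Of the C/EBP genes, Cebpb had a log2 fold change of -0.11 ± 0.40 and Cebpd of -0.07 ± 0.29, with edgeR adjusted p of 0.894 and 0.912. None of 7 tested acute-phase and cytokine-signalling genes was called (median log2 fold change -0.11), and none of 11 tested interferon-stimulated genes (median 0.23). Among these Nfkbia, the inhibitor of NF-kB, had a log2 fold change of -0.13 ± 0.18 (edgeR adjusted p = 0.686). B2m, a part of MHC class I, had 0.46 ± 0.20 (adjusted p = 0.174). Of the 11 interferon-stimulated genes 4 had an unadjusted p under 0.05 in edgeR, against 28.1% of all tested genes. Ifit3 (1.16 ± 0.33, edgeR adjusted p = 0.0699) and Gbp2 (0.99 ± 0.31, 0.0833) were higher in TAC without overlap. Irf9 was lower in TAC without overlap (-0.62 ± 0.17, edgeR adjusted p = 0.0655).

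The C1q chains differed from C3, Cfb, C1ra and C4b in how much they varied over the libraries. C1qa, C1qb and C1qc varied little over the 6 libraries, with an SD of their log2 CPM of 0.08, 0.09 and 0.09, against 0.57 for C3 and 0.68 for C3ar1. C1ra, Cfb, C4b and C3 ran with root mean square differences of 0.16 to 0.28 from each other, and with 0.35 to 0.58 from any C1q chain. Since C1q was nearly flat, the latter mostly restate the SD of these genes themselves, from 0.36 for Cfb to 0.57 for C3. Serping1 had differences of 0.23 to 0.26 from the C1q chains and of 0.17 to 0.37 from C1ra, Cfb, C4b and C3. Of 6818 genes outside the complement lists with a mean FPKM of 2 or more, those most like C1ra over the 6 libraries were Tgfbr2, a receptor for TGF-beta (difference 0.026), Mcl1, a survival factor (0.057), and Spin1 (0.073). Cfb was most like Ipo5, an importin (0.056), Sdc2, a cell-surface proteoglycan (0.059), and Tceal9 (0.061). C3 had no gene so close, with Gm12966 at 0.106, the acid ceramidase gene Asah1 at 0.163 and the atrophy ligase gene Fbxo32 at 0.170. C4b was nearest to Ndfip1 (0.098), the isocitrate dehydrogenase gene Idh1 (0.105) and Gm15772 (0.131), and Serping1 to Phyhd1 (0.061), the amino acid transporter gene Slc1a5 (0.066) and Man2b2 (0.067). The C1q chains, which varied least, were nearest to Lrrc59 and Copg1 at 0.029 for C1qc and Dhx38 at 0.035 for C1qb and 2610001J05Rik at 0.039 for C1qa. C3ar1 was nearest to Prkab2 (0.117), followed by the collagen gene Col1a2 (0.173) and the protease gene Mmp2 (0.181). With 6 libraries such matches are a description.

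**Figure D3:**
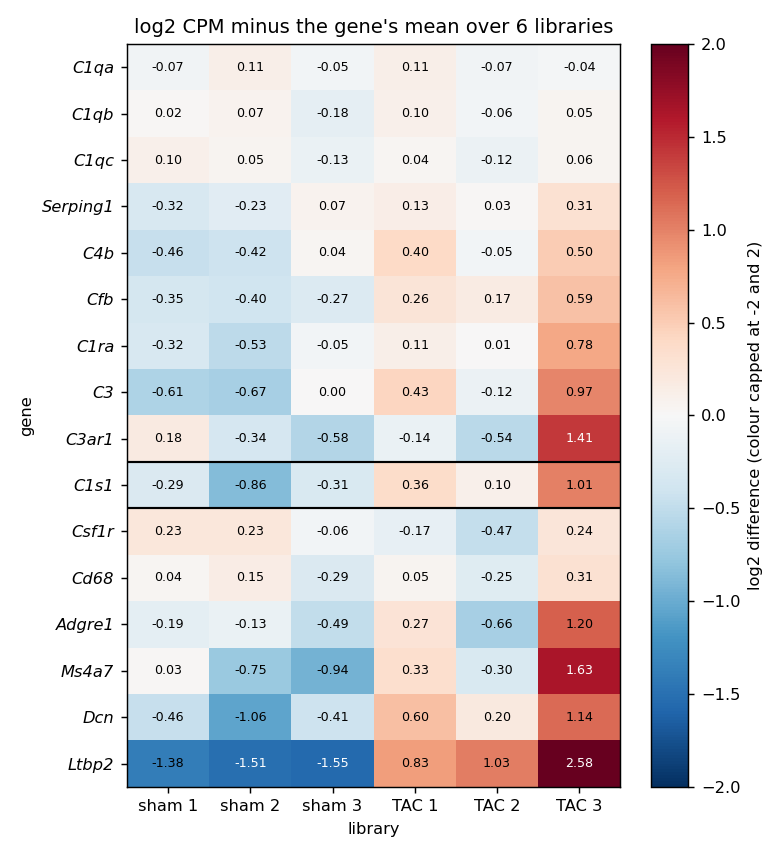
Log2 CPM minus the gene's mean over the 6 libraries (colour and printed value) for the 9 complement genes, for C1s1 (between the lines) and for markers of macrophages (Csf1r, Cd68, Adgre1, Ms4a7) and fibroblasts (Dcn, Ltbp2). C1q stays within 0.18 of 0, while C3ar1 reaches 1.41 in TAC replicate 3 and C3 ranges from -0.67 to 0.97.

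Of the rest of the pathway, 49 further complement genes were listed, of which 37 were in the table and 17 were tested. By edgeR 0 of the 17 were called, 3 had an unadjusted p under 0.05 (C1s1, C7 and Clu) and DESeq2 called the same 3. Their median log2 fold change was 0.12, with 10 of 17 above 0 and a range from -1.11 to 1.16.

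By role, neither of 2 tested genes of the terminal pathway passed, and they lay on different sides of 0. C7, part of the membrane attack complex, had a log2 fold change of 1.16 ± 0.33 (edgeR adjusted p = 0.0670), with 4.91, 2.44 and 2.98 CPM in sham and 10.2, 5.49 and 7.42 CPM in TAC. C8g had -0.47 ± 0.25 (edgeR adjusted p = 0.263). None of 3 tested lectin pathway genes passed, and Colec11, a soluble lectin, had -0.09 ± 0.19, while Masp1, a protease of that pathway, had 0.53 ± 0.24. Clusterin (Clu), an inhibitor of the attack complex with many other roles, averaged 1225 ± 242 CPM in sham against 2513 ± 1369 CPM in TAC, with 4091 CPM in TAC replicate 3 (log2 fold change 1.04 ± 0.35, adjusted p = 0.0996). Vtn, also listed as a soluble inhibitor, had -0.33 ± 0.25 (edgeR adjusted p = 0.434). Of the membrane inhibitors, Cd59a had 0.12 ± 0.14 and the mouse regulator Cr1l 0.32 ± 0.14, and neither passed. Properdin (Cfp), which stabilises the alternative pathway enzyme, had 0.30 ± 0.26, the receptor gene Cd93 0.37 ± 0.24 and Calr, a chaperone that binds C1q, -0.27 ± 0.19. Cfd, which encodes factor D, the protease that activates factor B, measured 0.409, 2.40 and 4.64 CPM in sham and 1.43, 0.823 and 1.21 CPM in TAC. Its sham libraries spread over the whole range, and its log2 fold change of -1.11 ± 0.69 did not pass (adjusted p = 0.336). Among the listed complement genes below the filter, Masp2 was at 0 in every library. Vsig4, Cd55 and Colec12 had all TAC libraries above the sham libraries. Vsig4 measured 0.114 to 0.234 CPM in sham and 0.593 to 0.883 CPM in TAC. Cd55 measured 1.01 to 1.68 and 2.75 to 4.91 CPM, and Colec12 1.12 to 2.67 and 4.11 to 5.19 CPM. None of these was tested, and the others below the filter did not separate the groups.

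Fibroblast markers were read beside C1ra, C3 and C1s1. Of 11 fibroblast markers 3 rose (Dcn, Lum and Mgp), none fell and 8 did not pass, with a median log2 fold change of 0.79 and a summed level of 2763 to 2902 CPM in sham and 2765 to 3704 CPM in TAC. Dcn, which encodes decorin, measured 68.7, 45.4 and 71.2 CPM in sham and 143, 109 and 209 CPM in TAC (log2 fold change 1.31 ± 0.27, edgeR adjusted p = 0.0323), and with GC and length trends removed its log2 fold change was 0.62 (adjusted p = 0.0939). Other markers of the list lay lower, among them Gsn, which encodes gelsolin and made up the largest part of the summed level. Gsn measured 2070, 2238 and 2172 CPM in sham and 1915, 1918 and 1861 CPM in TAC (-0.19 ± 0.13). Tcf21, a fibroblast transcription factor, had -0.10 ± 0.28, and neither passed. Of 8 activated-fibroblast markers 6 were tested and 5 rose, among them Ltbp2 (3.19 ± 0.46) and Thbs4 (2.63 ± 0.39), and their summed level was 38.8 to 59.8 CPM in sham and 153 to 411 CPM in TAC. Without TAC replicate 3 the log2 fold changes of Ltbp2 and Thbs4 were 2.42 and 1.99, and both passed. No marker of either list was at 0 in every library. The FPKM ratio of C3 to Dcn was 2.18 to 3.21 in sham and 1.93 to 2.15 in TAC. The part of fibroblast number or state in the complement values was not tested.

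The 6 liver markers summed to 5.04 to 10.3 CPM in sham and 5.33 to 6.95 CPM in TAC, with Alb between 0.168 and 0.554 CPM. The largest part of this sum was Ahsg, at 4.18 to 8.94 CPM. The 6 mesothelial markers summed to 3.18 to 9.68 CPM in sham and 1.95 to 6.07 CPM in TAC, and the 9 lymphocyte markers to 1.85 to 3.81 and 2.28 to 4.40 CPM. The 8 monocyte and neutrophil markers summed to 17.5 to 20.4 CPM in sham and 21.8 to 26.3 CPM in TAC, none of 3 tested markers was called, and Cd14, the most abundant, had a log2 fold change of 0.16 ± 0.16. Ccr2, a chemokine receptor of recruited monocytes, lay below the filter and measured 0.175, 0.0999 and 0.0916 CPM in sham and 1.29, 0.459 and 2.72 CPM in TAC. Its TAC libraries all lay above the sham libraries, as did those of Ly6c2 (log2 fold change 0.52 ± 0.22, edgeR adjusted p = 0.175) and Plac8. In S100a8, S100a9, Csf3r, Chil3 and Cd14 the groups overlapped. S100a9 had a log2 fold change of -0.35 ± 1.03 (edgeR adjusted p = 0.860), and S100a8 averaged 0.332 CPM in sham and 0.279 CPM in TAC. The highest library of Ccr2 was TAC replicate 3, as for C3 and C1ra. The part of monocytes in the complement values was not tested. Of 8 endothelial markers Tek rose (0.70 ± 0.17) and 7 did not pass. None of 5 red cell markers was called, though all had a log2 fold change above 0 (median 0.99) and 3 an unadjusted p under 0.05, and their summed level was 460 to 1492 CPM in sham and 978 to 2302 CPM in TAC. None of 10 cardiomyocyte markers was called (median -0.08).

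**Figure D4:**
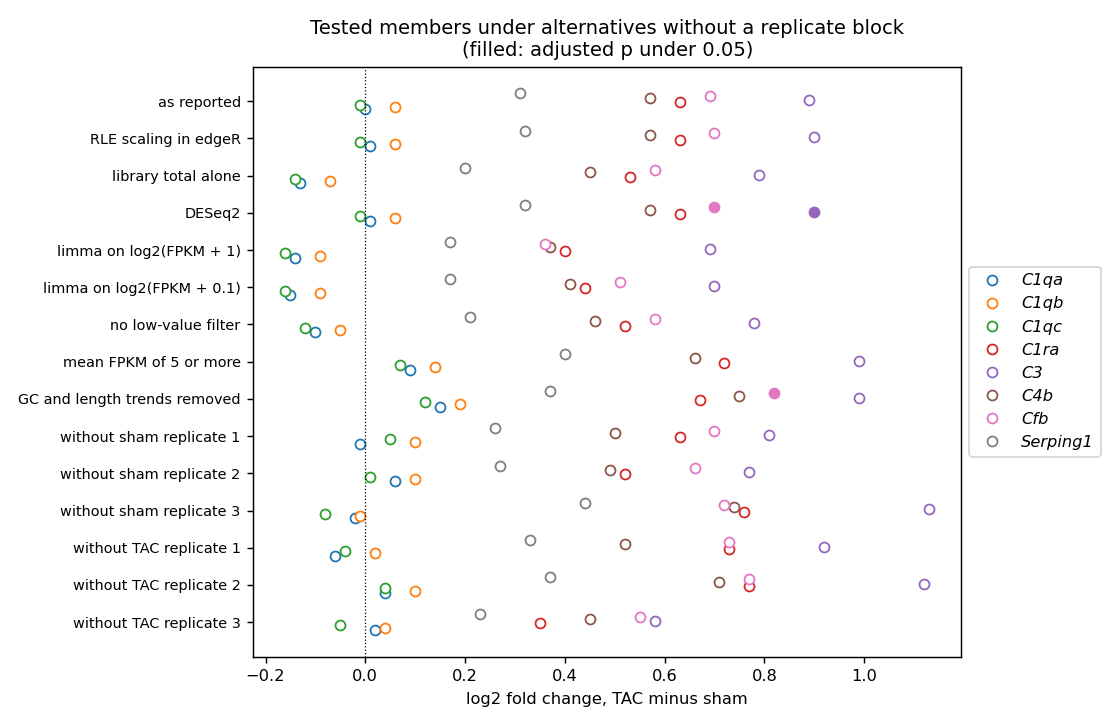
Log2 fold change of TAC minus sham (horizontal axis) of the 8 tested genes under the reported setting and 14 alternatives (rows; the fits with a replicate block or with records added together are not drawn), filled where the adjusted p was under 0.05. The C1q chains stay between -0.16 and 0.19, C3, Cfb, C1ra, C4b and Serping1 stay above 0, and 3 of the points are filled, 1 of C3 and 2 of Cfb.

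Across these alternatives, which leave out the fits with a replicate block or added records, no C1q chain passed and none left the range from -0.16 to 0.19. C3 stayed between 0.58 and 1.13, Cfb between 0.36 and 0.82, C1ra between 0.35 and 0.77, C4b between 0.37 and 0.75 and Serping1 between 0.17 and 0.44, with every value above 0. The lowest values of C3 and C1ra came from the fit without TAC replicate 3, and those of Cfb, C4b and Serping1 from limma on log2(FPKM + 1). That scale understates the change of low genes such as Cfb, which had 0.51 with 0.1 added in place of 1. C4b and Serping1 changed less with the smaller addition, to 0.41 and 0.17. Neither limma fit has TMM scaling, and the median of all tested genes was -0.13 with 1 added.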

How the data were processed

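Poly(A) RNA of 6 left-ventricle samples was sequenced. The submitters' processing notes list HISAT2 2.0.4, StringTie 1.3.4d and cutadapt 1.9, with build GRCm38; no annotation release or strand setting was found in them. The authors deposited FPKM and estimated counts per gene, per the file headers. Between 87.7% and 89.2% of low estimated counts (single-transcript genes under 60 counts) equalled scaled FPKM rounded up, within 0.1, so most follow the FPKM values. The labels do not say what produced them.

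Genes averaging at least 1 FPKM were fitted by edgeR 4.0.16 (R 4.3.3) on the deposited estimated counts with TMM scaling and the quasi-likelihood test, sham against TAC, with Benjamini-Hochberg adjustment over 8795 genes. SE is the log2 fold change divided by the square root of F, and intervals use its t distribution. Alternatives were DESeq2 1.42.0, limma 3.58.1 on log2(FPKM + 1) or log2(FPKM + 0.1), other scalings and filters, a replicate block, GC and length trends (GENCODE M21; lowess, span 0.3) removed, added records, and leaving out each library. On simulated counts for this comparison over 8795 genes, edgeR called 57.0% of the 100 genes simulated at 2-fold, 99.0% of the 100 at 4-fold and 5 unchanged genes.

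The members and gene lists were chosen with earlier results of these data known. A listed complement gene is not reported here and is left out of the list counts. Genes named besides the members were the most abundant complement gene of each role, called markers with the lowest adjusted p (or the most abundant), and for each member the 3 most alike genes. Other named genes (such as Adgre1, Ccr2, Lyve1, Cfd and Masp1) and the FPKM ratios were chosen after the values were seen.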

Additional observations from a re-analysis of the deposited data

How the results depend on the processing

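Counts of calls moved more than the members' values. Of all tested genes 615 were called, against 345 with library totals alone, 1648 by DESeq2, 285 without the filter on low values, 211 at a mean FPKM of 5 or more, and 12 (without sham replicate 2) to 1705 (without TAC replicate 3) with 1 library left out. Scaling by library totals and limma on log2(FPKM + 1) moved the median of all genes to -0.14 and -0.13, and gave 157 higher and 188 lower, and 174 higher and 338 lower, against 414 and 201. The labels do not say whether the replicate numbers pair the samples. Same-numbered deviations from the group mean correlated at -0.10, 0.14 and -0.06. TAC replicates 1 and 3 correlated best with sham replicates 2 and 1 (0.13 and 0.25), and TAC replicate 2 with sham replicate 2 (0.14). With 3 samples per group these values cannot decide whether the numbers mark pairs. The replicate block gave 183 calls, and 174 with GC and length trends removed.

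Of the members 0 were called, and 0 in each fit without 1 library, against 2 by DESeq2 (C3 at 0.90, Cfb at 0.70), 1 with the trends removed (Cfb at 0.82) and 1 with trends removed and the replicate block (C3 at 1.0). Of the 17 other complement genes 0 were called, against 3 by DESeq2 (C1s1, C7 and Clu), 1 with the replicate block (C7), and 0 to 1 with 1 library left out (C7 without sham replicate 1 or TAC replicate 3). The cause was not tested.

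The sign of the C1q chains was not stable, and none passed. With library totals alone C1qa and C1qb had -0.13 and -0.07, with limma -0.14 and -0.09 at a pseudocount of 1 and -0.15 and -0.09 at 0.1, and without the filter -0.10 and -0.05. C1qc had 0.07 at a mean FPKM of 5 or more, 0.12 with the trends removed and 0.11 with the block as well. With 1 library left out the ranges were -0.06 to 0.06 for C1qa, -0.01 to 0.10 for C1qb, -0.08 to 0.05 for C1qc and, without the filter, -0.18 to 0.91 for C3ar1. Cd59a had -0.01 with library totals, -0.02 in both limma fits, -0.29 with the trends removed and -0.30 with the block as well, and Colec11 ranged from -0.25 to 0.08 (without TAC replicate 3) with 1 library left out. Of the marker genes, Dcn lost its call in 10 of 16 alternatives, Lum in 12 of 16, Tek in 11 of 15, and Ltbp2 and Thbs4 each in 2 of 15.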
